A study of Saccharomyces cerevisiae with 6 samples.

Results

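The proline tRNAs of *Saccharomyces cerevisiae* were followed across the tRNA pools of *paf1∆*, *rtf1∆* and wild type cells. They were taken as every tRNA whose name in the deposited counts starts with the proline label, which gave 8 of the 70 listed tRNA sequences. Of the 8, 1 has the anticodon AGG and 7 have the anticodon UGG. Copies whose names differ only in the last number were summed into families, and this gave 3 proline families of 55 families in all. They are called here tRNA-Pro(AGG) (TRNA-PRO-AGG-1), first tRNA-Pro(UGG) (TRNA-PRO-TGG-1, 6 listed sequences) and second tRNA-Pro(UGG) (TRNA-PRO-TGG-2, 1 listed sequence). All 8 had reads in each of the 6 libraries, and none was removed by a filter on low counts.

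The tRNA pool was measured by tRNA-HySeq, in which gel-purified tRNA is cut by mild alkaline hydrolysis and fragments of 19 to 35 nucleotides are sequenced. There were 2 libraries each from *paf1∆* (strain DAS516), *rtf1∆* (strain DAS549) and wild type (strain DAS217) cells, harvested from log-phase YEP cultures with 2% dextrose at 30 °C, at an A600 between 0.6 and 0.8. In both deletion strains the gene is replaced by *HIS3*, and both carry the same markers in *ade2*, *ura3*, *trp1*, *leu2*, *his3* and *can1*. DAS217 is not among the strains listed in the study's methods, so strain background and deletion cannot be told apart in any comparison with wild type. Nothing in the labels says that the libraries of a genotype came from separate cultures, so p-values measure only the spread between libraries.

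The libraries held 519302 to 8259323 reads on tRNAs. The aligned share was 87.9% and 87.4% in the *paf1∆* libraries, 5.64% and 6.08% in the *rtf1∆* libraries and 6.76% and 6.43% in the wild type libraries. The listed reference lengths exceed those of the other 4 libraries by 3 nucleotides in both *paf1∆* libraries, so genotype and processing cannot be told apart in any comparison with *paf1∆*. By the names of the libraries, set 2 holds the *rtf1∆* pair with wild type replicate 2, set 1 holds wild type replicate 1, and *paf1∆* has no set. In each genotype the replicates were farther apart than sampling noise (chi-square over its degrees of freedom 23963 in *paf1∆*, 162 in *rtf1∆* and 1053 in wild type). A count of 3 reads was at most 0.000578% of a library's aligned reads. Each level is a part of its own library's tRNA reads, and amounts per cell were not measured.

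Proline is encoded by a box of codons that share their first bases and differ in the last. In yeast the A that opens the AGG anticodon is converted to inosine, and the U that opens the UGG anticodon carries a side chain that depends on the Elongator complex, so both tRNAs read more than 1 codon of the box. tRNA genes are transcribed by RNA polymerase III from promoters inside the gene, an A box and a B box. Paf1 and Rtf1 are subunits of the Paf1 complex, which is best known for travelling with RNA polymerase II during elongation. Some tRNA genes hold an intron next to the anticodon, and it has to be spliced out before the tRNA can be used.

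The 3 mature sequences are shown because the reads of the families can be told apart only where these sequences differ. They were read from the RefSeq R64 genome, spliced and written as DNA, with the anticodon in capitals and without the CCA end that is added after transcription.
tRNA-Pro(AGG): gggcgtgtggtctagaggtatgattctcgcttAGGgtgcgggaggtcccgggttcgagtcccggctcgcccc
first tRNA-Pro(UGG): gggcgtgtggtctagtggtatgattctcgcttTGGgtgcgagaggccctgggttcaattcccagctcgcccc
second tRNA-Pro(UGG): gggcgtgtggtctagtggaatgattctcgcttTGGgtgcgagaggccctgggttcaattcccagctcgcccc

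Each is 72 nucleotides long. Counted from 1 at the 5′ end, tRNA-Pro(AGG) differs from the first tRNA-Pro(UGG) at 8 positions (A16T, A33T, G41A, T46C, C49T, G56A, G58T and G63A), an identity of 88.9%. Position 33 is the first base of the anticodon, and the longest stretch without a difference runs over the 16 bases from 17 to 32. The second tRNA-Pro(UGG) differs from the first at 1 position, T19A, an identity of 98.6%. Thus fragments of the UGG families that lie entirely 3′ of position 19 are the same, while no window of 19 nucleotides is shared exactly between the AGG and UGG tRNAs. Of the 54 windows of 19 nucleotides in tRNA-Pro(AGG), 16 match a UGG gene with up to 1 mismatch and 20 with up to 2. In the other direction, 20 of the 54 windows of the first tRNA-Pro(UGG) match an AGG gene with up to 1 mismatch and 27 with up to 2. The mismatches allowed in the alignment are not given in the sources used here, so how many fragments could have crossed between the anticodons was not tested. GC content was 66.7% in tRNA-Pro(AGG) and 61.1% in both UGG tRNAs.

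The reference holds 12 nuclear proline tRNA genes, on 8 chromosomes, of 275 nuclear tRNA genes. tRNA-Pro(AGG) has 2 identical genes without an intron, *SUF2* (chrIII:123577-123648, minus strand) and *SUF10* (chrXIV:631846-631917, minus strand). *SUF* genes were first found as suppressors of frameshift mutations. The first tRNA-Pro(UGG) has 9 genes, *TRN1*, *SUF7*, *SUF8*, *SUF9*, *SUF11*, *YNCL0001W*, *YNCN0009W*, *YNCN0011W* and *YNCO0011W*, with 6 distinct sequences that differ only in the intron. The second tRNA-Pro(UGG) has the single gene *YNCO0031W* (chrXV:980683-980787, plus strand). All 10 UGG genes hold an intron after position 36, and 1 gene for each intron length is printed here with its intron in capitals, since the listed lengths of the UGG sequences, 102, 103 and 105 nucleotides outside *paf1∆*, are those of the unspliced genes.
*TRN1* (chrI:139152-139254, plus strand): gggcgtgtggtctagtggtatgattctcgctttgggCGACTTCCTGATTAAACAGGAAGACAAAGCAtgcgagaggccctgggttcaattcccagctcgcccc
*SUF11* (chrXV:464450-464551, plus strand): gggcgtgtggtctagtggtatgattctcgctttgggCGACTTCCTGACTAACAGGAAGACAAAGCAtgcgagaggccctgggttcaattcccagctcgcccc
*YNCO0031W* (chrXV:980683-980787, plus strand): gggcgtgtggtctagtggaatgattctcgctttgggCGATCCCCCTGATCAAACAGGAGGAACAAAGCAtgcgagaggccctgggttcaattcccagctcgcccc

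Against such unspliced references a fragment that runs across the splice junction of a mature UGG tRNA has no exact match. Of the windows of the first tRNA-Pro(UGG), 18 of the 54 with 19 nucleotides and 34 of the 38 with 35 nucleotides cross the junction. With up to 1 mismatch, 4 of the 18 junction windows of 19 nucleotides match an AGG gene and 3 a UGG gene. With up to 2 mismatches these are 9 and 6. Of the 34 junction windows of 35 nucleotides, 0 match an AGG gene and 3 a UGG gene with up to 1 mismatch. With up to 2 they are 4 and 6. tRNA-Pro(AGG) has no junction, but its windows were taken from the gene sequence, in which the anticodon opens with A and not inosine. Whether AGG fragments over this base were lost or placed on a UGG sequence was not tested. The AGG to UGG read ratio within a library is therefore not a molar ratio, and the part of lost junction reads in it was not tested. Fragment lengths per library are not part of the deposited counts, so whether they were alike between genotypes was not tested.

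The AGG and UGG genes also differ inside the B box. The B box sequence GGTTCGANTCC was found in both AGG genes and in none of the 10 UGG genes, and it is present in 29.8% of the 275 nuclear tRNA genes. With the change G56A it reads GGTTCAANTCC, which was found in all 10 UGG genes, in neither AGG gene and in 19.3% of the 275. Both were cut from the mature proline tRNAs themselves, with the base N left free. Their matches in the genes of their own anticodon were thus fixed in advance. Both were searched on either strand of the unspliced genes, and no stretch can match both. A match is a description of the letters only.

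tRNA-Pro(AGG) was among the least abundant anticodon types in every library. It had 11488 and 8387 reads in *paf1∆* replicates 1 and 2, against 2383 and 1456 reads in *rtf1∆* and 1270 and 2271 reads in wild type. These were 0.139% (95% Wilson interval 0.137 to 0.142%) and 0.106% (0.104 to 0.108%) of the aligned reads in *paf1∆*, 0.309% and 0.248% in *rtf1∆*, and 0.245% and 0.158% in wild type. As a share of aligned reads, both *paf1∆* libraries lay below and both *rtf1∆* libraries above the wild type pair, but *rtf1∆* replicate 2 and wild type replicate 1 were almost level. Intervals cover counting error only, since PCR copies of a molecule are not independent reads. By number of reads, not divided by length, it ranked 41 and 40 of the 43 anticodon types in *paf1∆*, 35 and 37 in *rtf1∆* and 38 in both wild type libraries.

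The UGG tRNAs made up most of the proline reads. Summed over the 7 listed sequences they had 85028 and 38878 reads in *paf1∆*, 3873 and 2923 in *rtf1∆*, and 5083 and 7763 in wild type. These were 1.03% and 0.492% of the aligned reads in *paf1∆*, 0.502% and 0.497% in *rtf1∆*, and 0.979% and 0.541% in wild type. The *rtf1∆* libraries were close to each other and below both wild type libraries, while the replicates of *paf1∆* and of wild type spread about as widely as each other and overlapped. Replicate 1 had the higher share in *paf1∆* and in wild type.

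All proline tRNAs together took 1.17% and 0.598% of the aligned reads in *paf1∆*, 0.811% and 0.745% in *rtf1∆* and 1.22% and 0.699% in wild type. The means were 0.883% ± 0.404 in *paf1∆*, 0.778% ± 0.0471 in *rtf1∆* and 0.961% ± 0.371 in wild type (SD, n = 2 each). The 3 genotypes overlapped, and proline ranked 18 to 20 of the 22 amino acid labels in every library. The log2 ratio of the mean shares was -0.12 for *paf1∆* over wild type, -0.31 for *rtf1∆* over wild type and 0.18 for *paf1∆* over *rtf1∆*, all within the spread between replicates. With DESeq size factors they were -0.030, 0.025 and -0.055, so the summed share has no settled direction in *rtf1∆* against wild type or between the deletions.

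**Figure D1:**
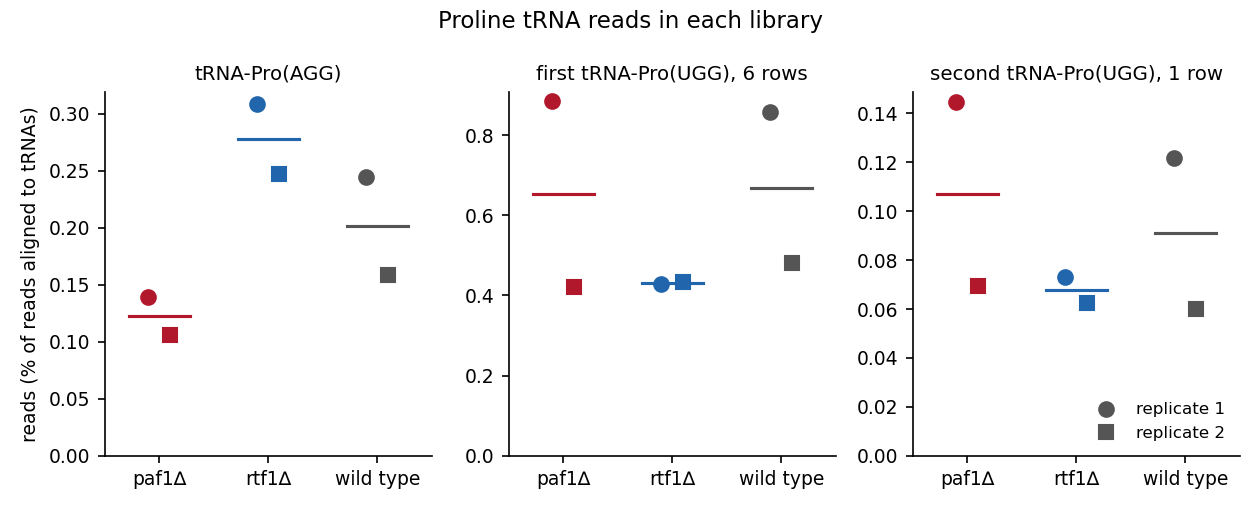
Reads of the 3 proline tRNA families as a percentage of the reads aligned to tRNAs (vertical axes, each from 0) in *paf1∆*, *rtf1∆* and wild type libraries; circles are replicate 1, squares replicate 2 and lines the mean of the 2 libraries. tRNA-Pro(AGG) lies lowest in *paf1∆* (0.139% and 0.106%), while the UGG families in *paf1∆* and wild type cover the same range.

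The ratio of AGG to UGG reads needs no normalization between libraries, since both are counted in the same library. It was 0.135 (95% interval 0.133 to 0.138) and 0.216 (0.211 to 0.221) in *paf1∆*. In *rtf1∆* it was 0.615 (0.585 to 0.647) and 0.498 (0.468 to 0.530), and in wild type 0.250 (0.235 to 0.266) and 0.293 (0.279 to 0.307). No genotype overlapped another, and the order was *rtf1∆*, wild type, *paf1∆* from high to low. Each interval excludes the other replicate of its genotype in *paf1∆*, *rtf1∆* and wild type, so the spread between replicates is larger than counting error.

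The mean ratio was 0.175 ± 0.0570 in *paf1∆*, 0.557 ± 0.0828 in *rtf1∆* and 0.271 ± 0.0302 in wild type (SD, n = 2 each). As part of the proline reads, tRNA-Pro(AGG) held 11.9% and 17.7% in *paf1∆*, 38.1% and 33.2% in *rtf1∆* and 20.0% and 22.6% in wild type. There are 2 AGG genes for 10 UGG genes, a ratio of 0.2. Per gene, the AGG to UGG ratio was 0.676 and 1.08 in *paf1∆*, 3.08 and 2.49 in *rtf1∆* and 1.25 and 1.46 in wild type. Aligned reads per gene were thus higher for AGG than for UGG in both *rtf1∆* and both wild type libraries, and in 1 of the 2 *paf1∆* libraries. Neither UGG reads lost at the splice junction nor any AGG reads lost at the inosine are corrected for in these values. Divided by the listed lengths, introns included, the ratio was 0.191 and 0.305 in *paf1∆*, 0.880 and 0.712 in *rtf1∆* and 0.357 and 0.418 in wild type. The mature tRNAs are equally long, but UGG fragments across the splice junction have no exact match. The undivided ratio is therefore not a ratio per mature nucleotide that can be aligned.

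**Figure D2:**
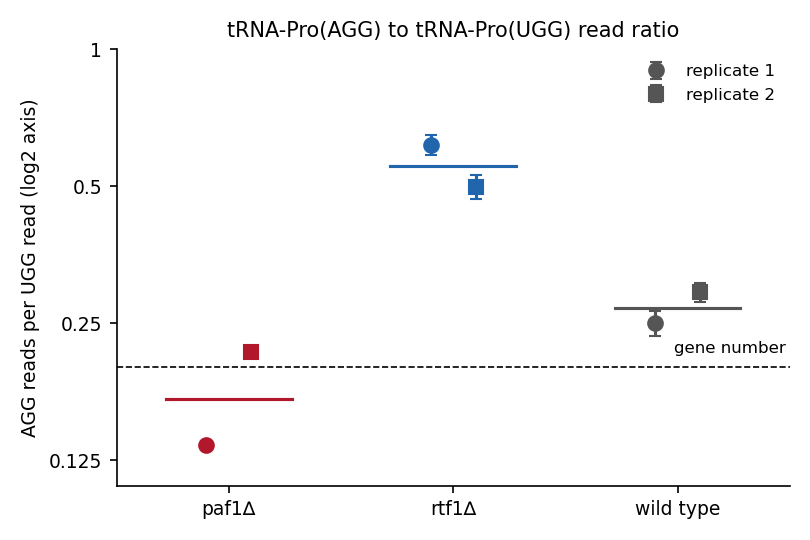
AGG reads per UGG read in each library on a log2 axis, with circles for replicate 1, squares for replicate 2, bars for 95% counting intervals, solid lines for the mean of the log2 ratios and a dashed line at the ratio of gene numbers, 0.2. The *rtf1∆* libraries (0.615 and 0.498) sit above wild type (0.250 and 0.293), and the *paf1∆* libraries (0.135 and 0.216) below it.

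On the log2 scale the ratio was lower in *paf1∆* than in wild type by a difference of -0.66 (standard error 0.36, n = 2 each, 0.631-fold), with single pairs of libraries from -1.11 to -0.21. It was higher in *rtf1∆* than in wild type by 1.03 (standard error 0.19, 2.05-fold), with pairs from 0.77 to 1.30. Both differences use the same wild type libraries. Between the deletions the difference was -1.70 for *paf1∆* minus *rtf1∆* (standard error 0.37, 0.308-fold), with pairs from -2.19 to -1.21. In each of the 3 comparisons all 4 pairs went the same way, and the exact permutation test gave p = 0.333, two-sided, which is the smallest value that 2 libraries against 2 can give.

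Such a lack of overlap was common. Among the 903 ratios that can be formed between the 43 anticodon types, 69.1% did not overlap between *paf1∆* and wild type, 55.6% between *rtf1∆* and wild type and 82.4% between *paf1∆* and *rtf1∆*. In 16.7% of them *paf1∆* lay on one side and *rtf1∆* on the other side of wild type without overlap, as the proline ratio did. The median absolute log2 difference over the 903 ratios was 1.59 between *paf1∆* and wild type, 0.60 between *rtf1∆* and wild type and 1.69 between *paf1∆* and *rtf1∆*. The proline difference was thus below this median in *paf1∆* against wild type, above it in *rtf1∆* against wild type and close to it between the deletions.

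The difference between *paf1∆* and wild type depends on the library used. It was -0.33 without *paf1∆* replicate 1 and -1.001 without *paf1∆* replicate 2. Within set 2 of the library names the ratio was 0.615 and 0.498 in *rtf1∆*, against 0.293 in wild type replicate 2, a log2 difference of 0.92 with a single wild type library and no test. With the first tRNA-Pro(UGG) alone in place of all UGG reads, the differences were -0.63 for *paf1∆* minus wild type, 1.06 for *rtf1∆* minus wild type and -1.69 for *paf1∆* minus *rtf1∆*.

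Levels of the families were next compared as CPM, counts brought to a common library size with TMM factors within a comparison. The quasi-likelihood test of edgeR was run over all 55 families. In *paf1∆* cells tRNA-Pro(AGG) had 1352 and 1424 CPM, against 1806 and 1641 CPM in wild type. Both *paf1∆* libraries were lower than both wild type libraries, which held for 29.1% of all families. Another 47.3% were higher without overlap, and 76.4% did not overlap in either direction. The log2 fold change was -0.31 (standard error 0.41, adjusted p = 0.540 by edgeR), smaller than its error.

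The first tRNA-Pro(UGG) had 8605 and 5667 CPM in *paf1∆* cells, against 6331 and 4986 CPM in wild type. The groups overlapped. The fold change was 0.33 on the log2 scale, with a standard error of 0.45 (adjusted p = 0.541 by edgeR). The second tRNA-Pro(UGG) had 1406 and 932 CPM in *paf1∆*, against 899 and 624 CPM in wild type. These did not overlap, but the fold change of 0.62 on the log2 scale (standard error 0.46) had an adjusted p of 0.327 by edgeR. None of the 3 proline families passed the threshold of 0.05 in *paf1∆* against wild type, where 18.2% of all families did, 12.7% higher and 5.45% lower. The split of these calls moved with the scaling, with 7 higher and 3 lower under TMM, 7 and 7 under DESeq size factors, 8 and 6 under total counts and 6 and 9 under upper-quartile factors.

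The zero of this comparison depends on the scaling. The median log2 fold change of all 55 families was 0.41 with TMM, 0.21 with DESeq size factors, 0.10 with total counts and 0.08 with upper-quartile factors. Relative to that median, tRNA-Pro(AGG) was at -0.72, -0.70, -0.82 and -0.73 under these scalings. The first tRNA-Pro(UGG) was at -0.07, -0.08, -0.14 and -0.12 relative to it. Its own fold change was 0.33 with TMM and -0.03 with total counts, so no direction can be given for it. The gap between the families, AGG minus first UGG, stayed between -0.68 and -0.61.

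With TMM factors, tRNA-Pro(AGG) was the proline tRNA of *rtf1∆* cells that stood farthest from wild type. It had 3263 and 3004 CPM in *rtf1∆*, against 1823 and 1656 CPM in wild type. Both *rtf1∆* libraries were higher, as in 27.3% of all families, 23.6% were lower without overlap, and 50.9% did not overlap in either direction. The log2 fold change was 0.85 (standard error 0.29), the third highest of the 55, with an unadjusted p of 0.00566 and an adjusted p of 0.0708 by edgeR. It therefore missed the threshold, as did every family in this comparison. The share called by edgeR was 0%, while 15 families had an unadjusted p under 0.05 and DESeq2 called 2.

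Leaving out wild type replicate 1, which alone is in set 1, gave tRNA-Pro(AGG) a log2 fold change of 0.92 in *rtf1∆* against wild type with an adjusted p of 0.00333 by edgeR. Over the 13 alternatives the adjusted p ranged from 0.00333 to 0.893, and the fold change from 0.47, under total counts, to 0.92. The median of all families lay at -0.0038 with TMM and -0.38 with total counts, and relative to it tRNA-Pro(AGG) was at 0.85 under both.

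In TMM CPM the UGG tRNAs of *rtf1∆* stayed within the wild type range or near it. The first tRNA-Pro(UGG) had 4531 and 5272 CPM in *rtf1∆*, against 6390 and 5032 CPM in wild type, with overlap. Its log2 fold change was -0.22 (standard error 0.29, adjusted p = 0.658 by edgeR). With total counts it was -0.63, farther from 0 than tRNA-Pro(AGG) at 0.47. Relative to the median of all families under total counts, the first tRNA-Pro(UGG) was at -0.25. The second tRNA-Pro(UGG) had 772 and 759 CPM in *rtf1∆*, against 907 and 630 CPM in wild type, and both *rtf1∆* libraries fell between the wild type libraries. Its log2 fold change was -0.0038 (standard error 0.35, adjusted p = 0.991 by edgeR).

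Between the deletions, tRNA-Pro(AGG) was the only proline family that passed the test. It had 1075 and 1319 CPM in *paf1∆*, against 2980 and 2673 CPM in *rtf1∆*. The groups were far apart, with a log2 fold change of -1.24 (standard error 0.26, unadjusted p = 0.0117, adjusted p = 0.0395 by edgeR), which placed it 48 of 55 from the highest. In this comparison 34.5% of all families were called, 16.4% lower and 18.2% higher, and 80% did not overlap. The calls were 10 higher and 9 lower under TMM, and 13 higher and 7 lower under total counts.

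The call rests on both *rtf1∆* libraries. Without *rtf1∆* replicate 1 the log2 fold change of tRNA-Pro(AGG) between *paf1∆* and *rtf1∆* was -1.18 (adjusted p = 0.382 by edgeR), and without *rtf1∆* replicate 2 it was -1.32 (adjusted p = 0.340). Without *rtf1∆* replicate 1 or without *rtf1∆* replicate 2, no family was called. It was also lost with total counts (-1.18, adjusted p = 0.128 by edgeR) and with the replicate number as a block (-1.25, adjusted p = 0.134). Over the 13 alternatives the fold change lay between -1.40 and -1.12, and 9 of the 13 passed the threshold.

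The UGG families were higher in *paf1∆* than in *rtf1∆* without passing the test. The first had 6838 and 5249 CPM in *paf1∆*, against 4138 and 4691 CPM in *rtf1∆*, 0.45 higher on the log2 scale (standard error 0.25, adjusted p = 0.224 by edgeR). For the second the log2 fold change was 0.52 (standard error 0.23, adjusted p = 0.147 by edgeR). Neither overlapped between the genotypes in TMM CPM, which held for 41.8% of all families in this direction and 38.2% in the other, but as a share of aligned reads *paf1∆* replicate 2 fell just below (first family) or between (second family) the *rtf1∆* libraries.

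**Figure D3:**
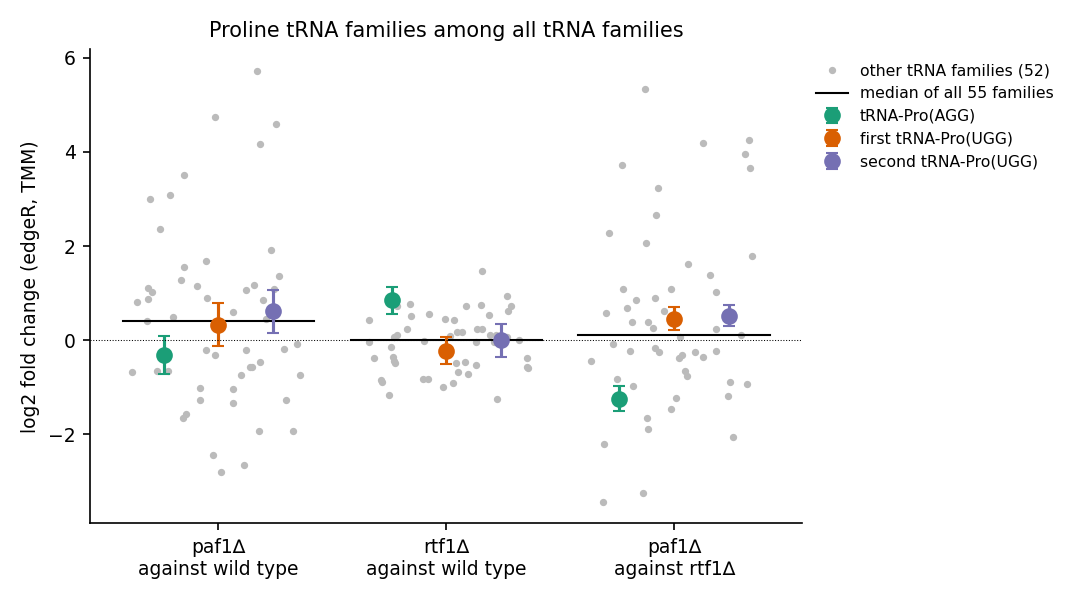
Log2 fold changes of the 3 proline families (colored points, bars are standard errors from edgeR) and of the other 52 tRNA families (grey points, spread sideways only for visibility) in the 3 comparisons, with the median of all 55 families as a line. tRNA-Pro(AGG) is at -0.31, 0.85 and -1.24, and the first tRNA-Pro(UGG) at 0.33, -0.22 and 0.45.

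The listed copies of the first tRNA-Pro(UGG) could not be told apart. Its 6 sequences had 11980 to 12312 and 5430 to 5620 reads in *paf1∆*, 528 to 573 and 395 to 443 in *rtf1∆*, and 720 to 814 and 1102 to 1185 in wild type. In no library did a chi-square test separate them from equal counts (p from 0.125 to 0.699). The adjusted p over the 6 libraries was 0.699 in each. The reads of the family therefore count as 1 measurement, and no output of a single gene is resolved.

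The second tRNA-Pro(UGG), with its single gene, was listed with nearly as many reads as each copy of the first. Its reads were 11940 and 5490 in *paf1∆*, 564 and 368 in *rtf1∆*, and 632 and 864 in wild type. If all UGG reads were spread equally over the 7 listed sequences it would hold 14.3% of them. It held 14.0% (95% Wilson interval 13.8 to 14.3%) and 14.1% (13.8 to 14.5%) in *paf1∆* and 14.6% (13.5 to 15.7%) and 12.6% (11.4 to 13.8%) in *rtf1∆*. In wild type it held 12.4% (11.6 to 13.4%) and 11.1% (10.4 to 11.8%). The intervals of *rtf1∆* replicate 2 and of both wild type libraries lie below the equal split, and that of *paf1∆* replicate 1 ends just short of it.

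A chi-square test over the 7 sequences gave an adjusted p of 0.165 and 0.613 in *paf1∆*, 0.778 and 0.165 in *rtf1∆*, and 0.00234 and 1.3e-11 in wild type. In wild type the second sequence thus differed from an equal split by more than the sampling noise, at 0.852 and 0.751 of the mean copy of the first. The corresponding values were 0.980 and 0.987 in *paf1∆* and 1.02 and 0.864 in *rtf1∆*. Since the sequences differ at 1 position, their separate levels are uncertain in every library. How the aligner placed a read that matched several sequences is not given in the sources used here, and the difference between genotypes was not tested.

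**Figure D4:**
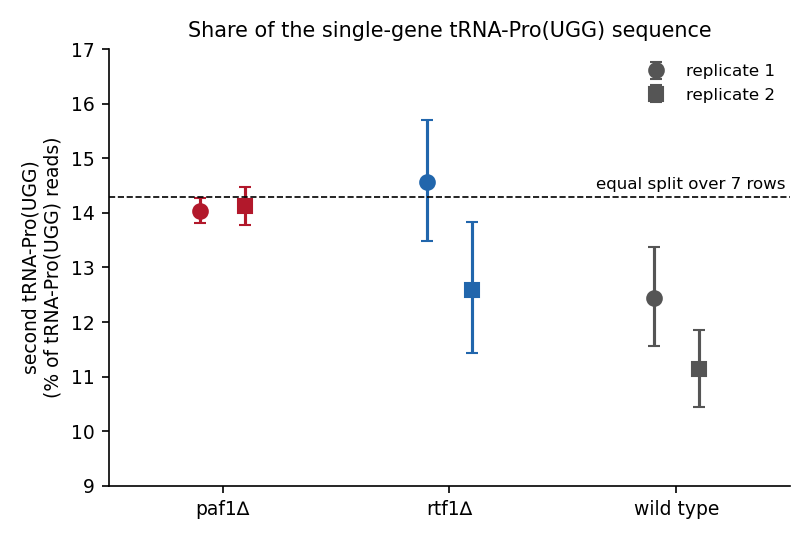
Reads of the second tRNA-Pro(UGG) as a percentage of all tRNA-Pro(UGG) reads in each library (vertical axis from 9 to 17%), with 95% Wilson intervals, circles for replicate 1, squares for replicate 2 and a dashed line at 14.3%, the share under an equal split over the 7 listed sequences. Both wild type libraries (12.4% and 11.1%) lie below the line and both *paf1∆* libraries (14.0% and 14.1%) next to it.

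Proline is 1 of 6 codon boxes in which yeast reads with a tRNA whose anticodon opens with A and a partner that opens with U. The same ratio was formed for alanine (AGC to UGC), isoleucine (AAU to UAU), serine (AGA to UGA), threonine (AGU to UGU) and valine (AAC to UAC). In *rtf1∆* minus wild type the proline box had the largest log2 difference of the 6, 1.03. The others ranged from -0.17 for valine to 0.34 for isoleucine. The wild type replicates were far apart for valine (ratios 1.93 and 0.395) and threonine (5.13 and 2.25). A small mean difference in these boxes therefore does not show that their ratio was unchanged. Only proline and isoleucine did not overlap, beside 55.6% of all 903 ratios between anticodon types. In *paf1∆* minus wild type the difference was -2.03 for threonine, -0.66 for proline and -0.44 for isoleucine, without overlap. Alanine, serine and valine overlapped, while 69.1% of the 903 ratios did not.

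Isoleucine was the only other box in which the *paf1∆* libraries lay below and the *rtf1∆* libraries above both wild type libraries. Of all 903 ratios, 16.7% had the deletions on opposite sides of wild type without overlap. The isoleucine ratios were 3.38 and 2.45 in *paf1∆*, 5.59 and 4.31 in *rtf1∆*, and 4.18 and 3.63 in wild type. The steps were smaller than for proline, 0.34 between *rtf1∆* and wild type and -0.77 between *paf1∆* and *rtf1∆* on the log2 scale. The alanine ratios of the deletions, 1.27 and 1.30 in *paf1∆* and 1.24 and 1.48 in *rtf1∆*, all lay between the wild type values of 0.965 and 1.90. Serine was at 13.1 and 218 in the *paf1∆* replicates, so its box gives no usable difference. Boxes were not tested against each other.

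**Figure D5:**
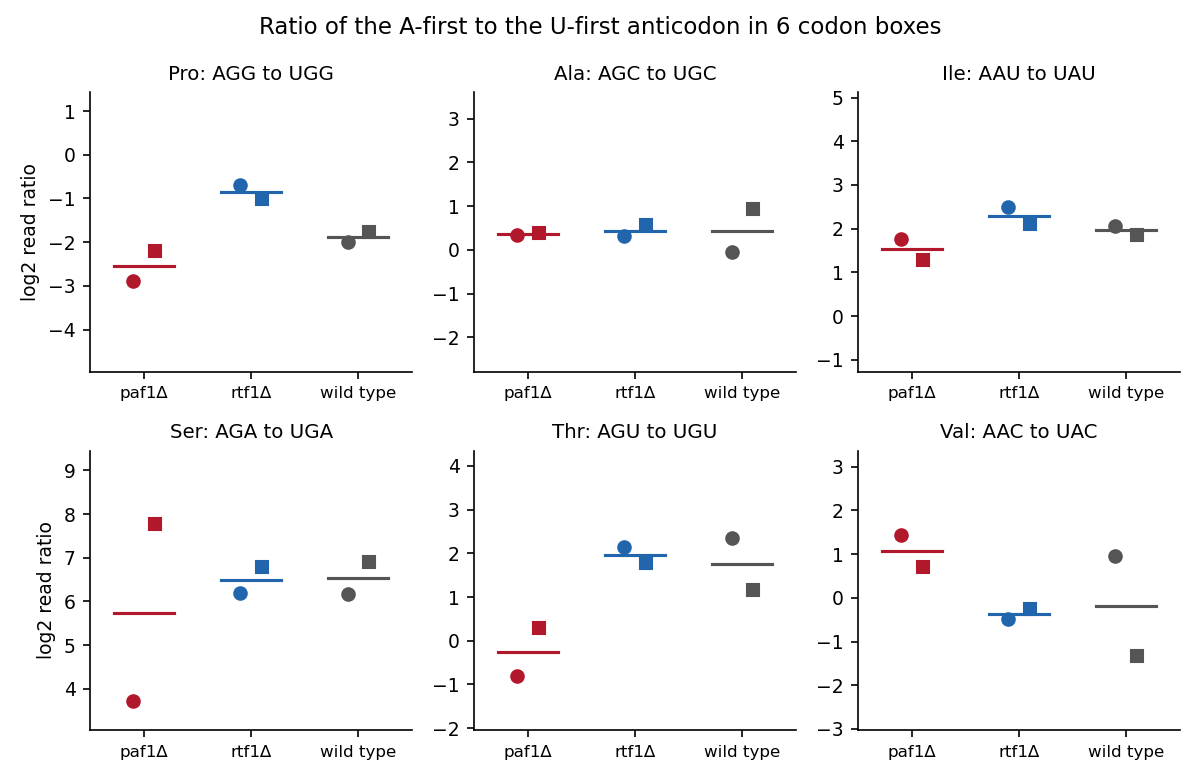
Log2 ratio of the reads of the A-first to those of the U-first anticodon in 6 codon boxes, with *paf1∆*, *rtf1∆* and wild type along the horizontal axis, circles for replicate 1, squares for replicate 2 and lines for the mean; each vertical axis spans the same range of 6.4 log2 units around the mean of its box. Proline and isoleucine show *rtf1∆* above and *paf1∆* below wild type without overlap, and the serine replicates of *paf1∆* are far apart.

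The families of these lists were also counted on their own. Of the 10 families with an A-first anticodon, the group whose A is converted to inosine, 6 had a log2 fold change above 0 and 4 below 0 in *paf1∆* against wild type, with a median of 0.50. Both families of tRNA-Ser(AGA) rose, by 3.50 and 4.17, as did the first family of tRNA-Arg(ACG), by 1.92, and no family of the list was called lower. Over all 55 families 12.7% were called higher and 5.45% lower. The 9 families with a U-first partner had a median of 0.50, with 6 above and 3 below 0. tRNA-Ser(UGA), the highest, rose by 4.59. The 13 intron-containing families had a median of 0.46, with 8 above and 5 below 0. tRNA-Ser(CGA), the highest, rose by 5.72. The 2 families of tRNA-Ile(UAU), which are in both of these lists, were at -1.27 and -1.03. The median of all 55 was 0.41, and tRNA-Pro(AGG) at -0.31 lay below the median of its list.

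In *rtf1∆* against wild type no family of any list was called, as none was over all 55. The A-first families split 5 above and 5 below 0, with a median of 0.11, and tRNA-Pro(AGG) at 0.85 was the highest of the 10. The U-first families had a median of -0.22 and the intron-containing families of -0.0038, equal to the value over all families. Between *paf1∆* and *rtf1∆* the A-first list had 3 of its 10 families called higher and 2 called lower, beside 18.2% higher and 16.4% lower over all 55. The 2 lower ones were tRNA-Ile(AAU), at -1.64, and tRNA-Pro(AGG), at -1.24. The median of the U-first list was 0.45, that of the intron-containing list 0.45 and that of all families 0.11. In the U-first list, 2 of the 9 were called higher, and in the intron-containing list 1 of the 13, again beside 18.2% of all families.

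Over the 6 libraries the shares of the AGG and UGG tRNAs did not move together. The Pearson correlation of their log2 CPM, scaled to total counts, was -0.06 over the 6 libraries, which are 3 pairs of replicates. Of the other 52 families, those most like tRNA-Pro(AGG) were initiator methionine tRNA, which starts translation (r = 0.929), tRNA-Cys(GCA) (r = 0.857) and the second family of tRNA-Phe(GAA) (r = 0.831). Initiator methionine tRNA had 828 and 561 CPM in *paf1∆*, 7643 and 4915 in *rtf1∆* and 6154 and 3699 in wild type, a much wider range than that of tRNA-Pro(AGG). Most like the summed UGG tRNAs were tRNA-Trp(CCA) (r = 0.910), the first family of tRNA-Thr(UGU) (r = 0.903) and the second family of tRNA-Arg(ACG) (r = 0.814). tRNA-Trp(CCA), the tRNA of the only tryptophan codon, had 36123 and 17791 CPM in *paf1∆*, 15392 and 15045 in *rtf1∆* and 26097 and 12722 in wild type. Like the UGG tRNAs, it was higher in replicate 1 than in replicate 2 of *paf1∆* and of wild type. These correlations are descriptions over libraries that share genotype, depth and scaling.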

How the data were processed

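tRNA-HySeq counts of 6 libraries, 2 each from *paf1∆*, *rtf1∆* and wild type cells, were analysed. On the Galaxy platform the authors clipped and trimmed the reads and mapped them to yeast's unique tRNA sequences. They deposited raw read counts per sequence from IdxStats, without normalization, with a listed length and the reads aligned to no tRNA. The submitters' processing notes name Bowtie and SAMtools. Versions, mismatch settings and the source of the reference sequences are not given in the sources used here. Genotypes and replicate numbers came from the labels, and for *rtf1∆* those numbers are crossed with the numbers in the names of the deposited files.

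Counts were summed by family. For each comparison edgeR 4.0.16 (R 4.3.3) was fitted to the 4 libraries concerned, with TMM factors and the quasi-likelihood test, adjusted by Benjamini-Hochberg over 55 families with a threshold of 0.05. Families needed 10 counts in 2 or more libraries, and 0 were removed. Standard errors are the absolute log2 fold change over the square root of F. Ratios were compared on the log2 scale by the exact permutation test. Shares have Wilson intervals at 95%, and a floor of 3 counts. Depth per library was 519302 to 8259323 aligned reads. Alternatives were other scalings, DESeq2 version 1.42.0, no filter, all 6 libraries in one fit, the replicate block, other ways of summing and leaving out single libraries, which assumes that a lone library varies like the other genotype. The fits were also run on simulated data, whose outcome is not reported here and backs no call in the text.

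All proline rows and sums, the 3 families most like each anticodon, the A-first, U-first and intron-containing lists and the 6 boxes were named. The members and lists were chosen with earlier results of these data known. Genes, introns and sequences were read from the RefSeq R64 reference.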

Additional observations from a re-analysis of the deposited data

Results flagged for a closer look

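The log2 AGG to UGG read ratio differed between the deletions by -1.70 (*paf1∆* minus *rtf1∆*), with the 2 *paf1∆* libraries below and the 2 *rtf1∆* libraries above both wild type libraries. All 4 pairs of libraries went the same way, but the difference could not pass a test with 2 libraries against 2. The exact permutation test gave its smallest p of 0.333. Of the 903 ratios between anticodon types, 82.4% did not overlap between the deletions, and 16.7% had them on opposite sides of wild type. The median absolute log2 difference of these ratios between the deletions was 1.69, close to that of proline.

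The level of tRNA-Pro(AGG) differed between *paf1∆* and *rtf1∆* by a test of that difference, with a log2 fold change of -1.24 and an adjusted p of 0.0395 by edgeR. In this comparison 34.5% of all families were called, and genotype and processing cannot be told apart. For tRNA-Pro(AGG) the call was lost with total counts, with the replicate block and when either *rtf1∆* library was left out. Over its 13 alternatives the adjusted p lay between 0.00080 and 0.382.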

How the results depend on the processing

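The AGG to UGG ratio had the same sign in all 4 pairs of libraries of each comparison, so leaving out a library could not turn it, and the replicate block leaves it as it is. The summed proline share moved by less than the spread between replicates with DESeq size factors, to -0.030 in *paf1∆* against wild type, 0.025 in *rtf1∆* against wild type and -0.055 in *paf1∆* against *rtf1∆*. When single libraries were left out, the ratio ranged from -1.001 to -0.33 in *paf1∆* minus wild type, 0.88 to 1.19 in *rtf1∆* minus wild type and -2.03 to -1.36 in *paf1∆* minus *rtf1∆*. Deviations of same-numbered libraries correlated with r = 0.114 in *paf1∆* and wild type, 0.304 in *rtf1∆* and wild type and 0.0426 in *paf1∆* and *rtf1∆*. The labels tie no number to a shared culture or day, so the libraries share only a number, and the cause of changes under the replicate block was not tested. With the replicate block the families called were 0 (main 10) in *paf1∆* against wild type and 10 (main 19) between the deletions, tRNA-Pro(AGG) between the deletions was at -1.25 (adjusted p = 0.134), the second tRNA-Pro(UGG) in *rtf1∆* against wild type at 0.018, and the ratios did not move.

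In *paf1∆* against wild type the families called were 29 with DESeq2, 20 with all 6 libraries in one fit and 4 to 19 with a library left out. The first tRNA-Pro(UGG), at 0.33, was at -0.033 with total counts, -0.043 with upper-quartile factors, -0.0060 with rows as deposited and -0.25 to 0.52 with a library left out. tRNA-Pro(AGG) was at -0.94 to -0.24. The second tRNA-Pro(UGG) was at -0.039, without wild type replicate 2, to 0.90.

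In *rtf1∆* against wild type the families called, 0 in the main test, were 3 with total counts, 2 with DESeq2, 4 with rows as deposited, and 0 to 20 with a library left out, where 20 were found without wild type replicate 1. tRNA-Pro(AGG) was at 0.67 to 0.92, and the second tRNA-Pro(UGG) at -0.36 to 0.28, with 0.28 found without wild type replicate 1.

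Between *paf1∆* and *rtf1∆* 29 families were called with DESeq2 and 0 to 39 with a library left out. tRNA-Pro(AGG) was at -1.18 with total counts (adjusted p = 0.128) and -1.40 to -1.12 with a library left out. The first tRNA-Pro(UGG) was at 0.23 to 0.63, and the second at 0.30 to 0.69, and both passed the threshold without *paf1∆* replicate 2 (adjusted p = 0.0496 and 0.0118). Adjusted p-values are from edgeR. The cause of these changes was not tested. The lowest count of a proline sequence in a library was 368 reads.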
